A study of Homo sapiens with 8 samples.

Results

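The regions described here are intervals of the deposited p63 lists that lie around 10 genes for secreted or cell-surface signals of inflammation and immunity: IL1A, IL1B, CXCL8, CXCL1, TNFSF15, CCL20, TSLP, CD274, IL33 and LIF. A region was taken when its midpoint fell in 1 of 8 windows of the hg19 genome build. IL1A and IL1B share a window, as do CXCL8 and CXCL1, and the other 6 genes have a window each. The windows held 36 of the 15267 regions in the union of both lists, that is 34 of the 13829 regions listed in CAL27 and 11 of the 5886 listed in SCC13. All 10 symbols were found in the RefSeq gene table on the chromosome of their window.

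The study measured p63 binding by ChIP-seq, the sequencing of DNA that is precipitated with an antibody, in 2 human squamous carcinoma cell lines, CAL27 and SCC13, both labelled wild type and untreated. Each line had 2 p63 samples and 2 samples titled none, and its deposited list is named for both p63 samples. CAL27 cells grew in medium with 10% serum, whereas SCC13 cells grew in keratinocyte medium with 25 ug/ml BPE, 0.2 ng/ml EGF and 0.3 mM CaCl2, so line and medium cannot be told apart in any difference given here. A list holds chromosome, start and end of each region and no height, score or depth, so every difference between the lines is without a replicate check. Absence from a list may mean that binding was missed.

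The protein p63 is the transcription factor that maintains the basal layer of stratified epithelia and the identity of most squamous carcinomas. It binds, as its relative p53 does, to a paired CATG-like element, and much of its binding in keratinocytes lies at enhancers away from gene starts. Keratinocytes and squamous tumour cells release alarmins of the IL-1 family, chemokines that attract neutrophils and lymphocytes, and cytokines that act on T cells, many of them under control of NF-kB and AP-1.

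Sequence of the listed regions was not used here, because the reference tables are of GRCh38.p14 and the lists of hg19. RefSeq sequences at the start sites were matched for 9 of the 10 genes; the entry for LIF is missing. The 250 bases before the start are shown for the 4 genes whose locus held a region listed in both lines and whose first such stretch held either the AP-1 motif TGANTCA or an NF-kB motif, here GGG, any 2 bases and TTTCC, a choice made after the matches were seen. TNFSF15, which also had an AP-1 match, is left out because its entry starts inside the gene. Capitals mark these matches on either strand, each stretch is written 5′ to 3′ on the gene's strand, and the GRCh38.p14 positions cannot be set against those of the regions.
IL1A, chr2:112784494-112784743, minus strand: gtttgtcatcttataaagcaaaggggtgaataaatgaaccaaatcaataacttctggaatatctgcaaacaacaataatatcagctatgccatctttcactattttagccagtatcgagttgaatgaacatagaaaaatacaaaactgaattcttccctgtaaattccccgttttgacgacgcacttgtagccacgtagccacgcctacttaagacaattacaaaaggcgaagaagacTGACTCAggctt
CXCL8, chr4:73740319-73740568, plus strand: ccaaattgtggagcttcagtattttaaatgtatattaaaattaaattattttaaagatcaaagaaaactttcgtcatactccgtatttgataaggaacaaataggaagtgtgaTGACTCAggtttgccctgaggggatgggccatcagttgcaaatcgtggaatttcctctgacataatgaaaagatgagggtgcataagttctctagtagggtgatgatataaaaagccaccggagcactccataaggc
CXCL1, chr4:73869143-73869392, plus strand: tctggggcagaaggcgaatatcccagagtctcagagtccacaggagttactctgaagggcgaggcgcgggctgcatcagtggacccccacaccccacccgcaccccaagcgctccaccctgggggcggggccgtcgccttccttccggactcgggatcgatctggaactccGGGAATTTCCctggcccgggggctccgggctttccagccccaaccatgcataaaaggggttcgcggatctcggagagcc
CCL20, chr2:227813592-227813841, plus strand: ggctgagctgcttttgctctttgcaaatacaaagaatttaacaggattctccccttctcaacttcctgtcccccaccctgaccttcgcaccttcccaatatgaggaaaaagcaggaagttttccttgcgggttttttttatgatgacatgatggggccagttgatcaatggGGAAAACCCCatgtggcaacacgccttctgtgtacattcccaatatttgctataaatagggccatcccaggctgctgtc

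The match in CXCL1 lies 79 to 70 bases before the start, as does that in CCL20, and the AP-1 match lies 137 to 131 bases before the start of CXCL8 and 12 to 6 before that of IL1A. Among all 35116 start sites of the table, 6.57% had TGANTCA and 1.73% had the NF-kB motif in the same 250 bases. These percentages are per start site, whereas the 9 genes had 13 start sites and a gene was counted when any of its starts matched. The AP-1 motif was matched in IL1A, CXCL8 and TNFSF15, and the NF-kB motif in CXCL1 and CCL20. The NF-kB pattern is strict: the CXCL8 stretch holds TGGAATTTCC, which differs from it only in the first base and was not counted. A gene without a match may therefore hold another form of the motif. A strict paired p63 element, CATG, any 6 bases and CATG, found at 0.296% of all starts, and the forkhead motif TGTTTAC, at 2.98%, were matched in none of the 9 genes. The looser core, CNNG, any 6 bases and CNNG, was matched in 6 genes, but 68.6% of all starts have it, and the TEAD motif GGAATG, at 11.9% of all starts, was matched in TNFSF15 and CCL20. These matches describe letters in these stretches and are not binding sites.

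The IL1 and LIF windows, 440 and 200 kb long, together held 22 of the 36 regions, and 21 of the 34 in CAL27. In SCC13 they held 2 and 3 of the 11 regions, each fewer than the 4 at TNFSF15. Per Mb, TNFSF15 (26.7) was close to IL1 (27.3) in CAL27 and was the densest window in SCC13. The TNFSF15 window held 4 regions of each line, a balance that depended on the bounds of the window. In the CXCL, CCL20, TSLP, CD274 and IL33 windows no list had more than 3 regions. CAL27 had a region in all 8 windows, and SCC13 had none in the windows of TSLP, CD274 and IL33. Over all windows, 2.15 Mb in length, CAL27 had 15.8 regions per Mb and SCC13 had 5.12, against 4.72 and 2.01 between the first and last regions of the chromosomes. The windows were drawn around chosen genes, so this excess is a description without a test.

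**Figure D1:**
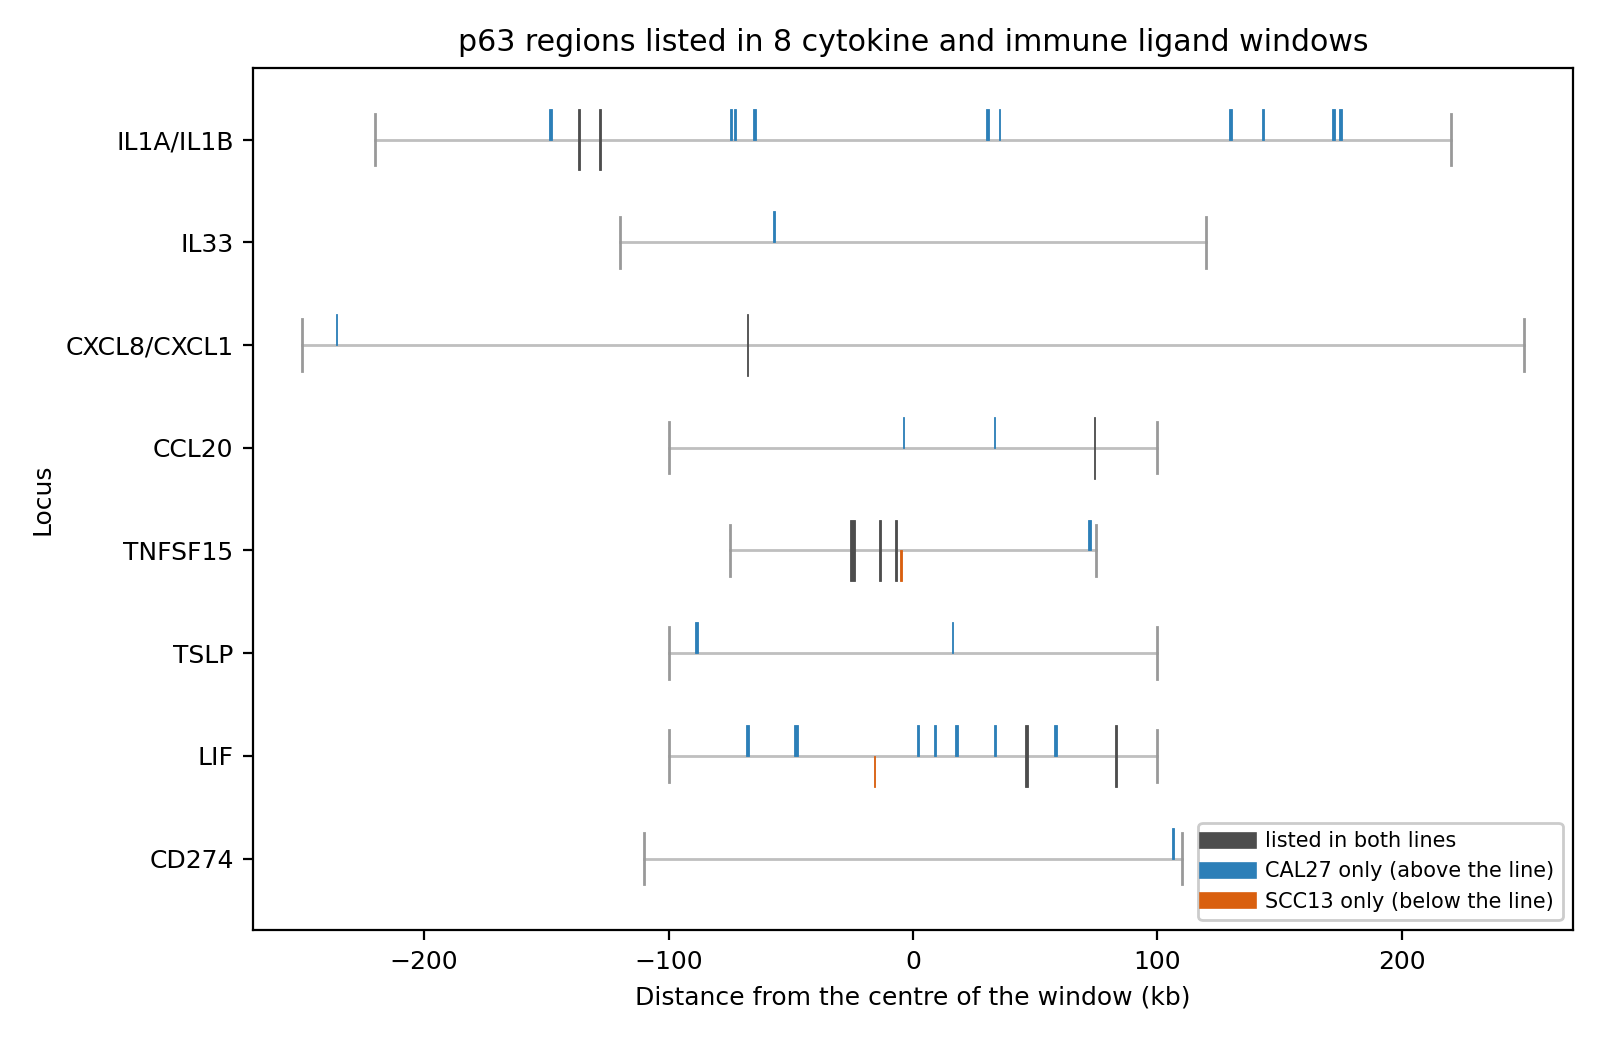
Each row is a locus window, drawn as distance from its centre in kb, with ticks at its ends and each listed p63 region as a bar at its place and width. Bars across the line are listed in both lines, bars above it in CAL27 only and bars below it in SCC13 only: the IL1A/IL1B row has 12 bars, of which 2 are in both lines, and the IL33 and CD274 rows have 1 each.

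Of the 36 regions, 9 were listed in both lines, 25 in CAL27 only and 2 in SCC13 only. All 9 regions listed in both had identical start and end in both lists, as had all 4448 such regions of the whole lists, so this is no property of these loci. How the lists came to hold the same bounds was not given. The width of a shared region therefore cannot be taken as measured separately in each line. The 9 shared regions made up 26.5% of the 34 CAL27 regions (95% exact binomial interval 12.9 to 44.4), beside 32.2% over the whole CAL27 list. Of the 11 SCC13 regions, 81.8% were also in CAL27 (48.2 to 97.7), beside 75.6% over the whole SCC13 list. Both intervals hold the value of the whole list. They treat regions as independent, which neighbouring regions are not, so no conclusion on sharing is drawn from them. CAL27 had 3.09 regions for each SCC13 region in the windows and 2.35 over the whole lists. The higher ratio depended on the IL1 window, without which CAL27 had 22 regions and SCC13 had 9.

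IL1A and IL1B encode the classical interleukin-1 cytokines, IL1A as an alarmin held in epithelial cells and IL1B as a secreted cytokine that needs cleavage. In the RefSeq gene order they open a run of 9 IL-1 family genes, followed by IL37, IL36G, IL36A, IL36B, IL36RN, IL1F10 and IL1RN, the last being the gene of the natural IL-1 receptor antagonist. The 440 kb window on chromosome 2, from 113.48 to 113.92 Mb, held 12 CAL27 regions and 2 SCC13 regions, or 27.3 and 4.55 per Mb. Of consecutive 440 kb windows laid along the chromosomes, 0.451% had at least 12 CAL27 regions and 22.3% had at least 2 SCC13 regions.

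Both SCC13 regions of the IL1 window were next to each other, at chr2:113563014-113563734 (721 bp) and chr2:113571374-113572457 (1084 bp), with midpoints 8.54 kb apart. CAL27 listed the same 2 regions and a further one to their left, at chr2:113551020-113552111 (1092 bp), 11.8 kb from the nearest. These 3 formed the first group of neighbours, defined as regions whose midpoints follow each other within 12.5 kb. To their right the window had 9 regions, all listed in CAL27 only.

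A second CAL27 group of 3 spanned chr2:113625139-113635555, with regions of 990, 749 and 982 bp, and its left edge lay 52681 bp to the right of the last region listed in both lines. A pair followed at chr2:113729919-113731016 (1098 bp) and chr2:113735115-113735626 (512 bp). The widest regions of the window lay toward its right end: chr2:113829353-113830623 with 1271 bp, chr2:113871305-113872739 with 1435 bp and chr2:113874218-113875689 with 1472 bp. Of the CAL27 list, 6.46% of regions were as wide as the last of these or wider, and the nearest SCC13 region was 303 kb away. The remaining region, of 812 bp, was at chr2:113842876-113843687. The regions of both lines thus lay together in the left part of the window, and its middle and right parts held CAL27-only regions.

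Beyond the IL1 window, the flanks of 500 kb on each side held 9 CAL27 regions and 2 SCC13 regions, and both of the latter were also in CAL27. To the right of the window, the next SCC13 region was 681 kb from the window's end, and to the left it was 29.8 kb from the window's start. Widened by 50 kb on each side, the window held 14 CAL27 and 3 SCC13 regions.

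IL33 encodes an alarmin of the same family that is stored in the nucleus and acts through the receptor ST2. Its 240 kb window on chromosome 9, from 6.12 to 6.36 Mb, held 1 region, at chr9:6182605-6183342 (738 bp), listed in CAL27 only. At least 1 CAL27 region was present in 52.0% of 240 kb windows, and 67.3% of them had no SCC13 region, so neither count sets the IL33 window apart. The nearest region of either line to this one was 80.2 kb away. With the window widened by 50 kb on each side, it held 2 CAL27 regions and 1 SCC13 region.

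CXCL8 and CXCL1 encode chemokines that draw neutrophils through the receptor CXCR2. In the RefSeq order they belong to a run of 9 genes: CXCL8, CXCL6, PF4V1, CXCL1, PF4, PPBP, CXCL5, CXCL3 and CXCL2. The 500 kb window on chromosome 4, from 74.55 to 75.05 Mb, held 2 CAL27 regions, at chr4:74563815-74564490 (676 bp) and chr4:74731891-74732394 (504 bp), and the second was also the only SCC13 region. Widened by 50 kb on each side, the window held 4 CAL27 and 3 SCC13 regions, and narrowed by 25 kb it held 1 of each line. Among 500 kb windows, 51.9% had at least 2 CAL27 regions and 52.9% had at least 1 SCC13 region.

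The 504 bp region of the CXCL window, with the same bounds in both lists, was narrow: 89.8% of CAL27 regions and 90.0% of SCC13 regions were as wide or wider. It was also isolated: its nearest neighbour was 168 kb away in CAL27 and 192 kb away in SCC13. The first region lay 14.2 kb inside the window's edge and 23.8 kb from its nearest neighbour, which lies outside and is listed in both lines. The flanks of 500 kb held 8 CAL27 regions and 7 SCC13 regions, 7 of them listed in both.

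CCL20 encodes a chemokine for cells that bear the receptor CCR6, such as Th17 cells and immature dendritic cells. Its 200 kb window on chromosome 2, from 228.58 to 228.78 Mb, held 3 CAL27 regions, at chr2:228675949-228676440 (492 bp), chr2:228712939-228713574 (636 bp) and chr2:228753862-228754528 (667 bp). Only the third was listed in SCC13, and its nearest SCC13 neighbour was 423 kb away. At least 3 CAL27 regions were found in 11.9% of 200 kb windows and at least 1 SCC13 region in 28.8%. All 3 regions were narrower than the median CAL27 region of 791 bp, and they were 37.1 and 40.9 kb apart. The flanks of 500 kb held 3 CAL27 regions and 1 SCC13 region, none of them listed in both.

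TNFSF15 encodes TL1A, a ligand of the TNF family that acts on T cells and innate lymphoid cells through the death receptor DR3. Its 150 kb window on chromosome 9, from 117.50 to 117.65 Mb, held 4 regions of each line, or 26.7 per Mb. Widened by 50 kb on each side it held 7 CAL27 and 5 SCC13 regions, and narrowed by 25 kb it held 3 and 4. At least 4 SCC13 regions were found in 0.318% of 150 kb windows and at least 4 CAL27 regions in 3.37%. The lines shared chr9:117549362-117551231 (1870 bp), chr9:117560947-117561971 (1025 bp) and chr9:117567519-117568254 (736 bp).

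The first of these was the widest region in any of the 8 windows, and 1.82% of CAL27 regions and 2.68% of SCC13 regions were as wide or wider. The other SCC13 region, chr9:117569861-117570532 (672 bp), was listed in SCC13 only and lay 1606 bp to the right of the third. Together the 4 SCC13 regions formed a group with 19.9 kb between the first and last midpoints, and the 3 shared regions formed the CAL27 group, over 17.6 kb. The remaining CAL27 region, chr9:117646710-117647635 (926 bp), was 2.83 kb inside the window's edge and 77.0 kb from its neighbour in the window. In the RefSeq order, TNFSF8 follows TNFSF15. The flanks of 500 kb held 23 CAL27 regions, the most of the 8 windows, and 7 SCC13 regions, all 7 listed in both.

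TSLP encodes an epithelial cytokine that primes dendritic cells for type 2 responses. Its 200 kb window on chromosome 5, from 110.31 to 110.51 Mb, held 2 CAL27 regions, chr5:110320743-110322164 (1422 bp) and chr5:110425970-110426476 (507 bp), and no SCC13 region. They were 105 kb apart, and 23.8% of 200 kb windows had at least 2 CAL27 regions. No SCC13 region was listed in 71.2% of such windows. The wider of the pair lay 11.5 kb inside the edge of the window and was lost when the window was narrowed by 25 kb on each side, and 7.65% of CAL27 regions were as wide or wider. The nearest SCC13 region was 281 kb from it and 176 kb from the narrower one, and the flanks of 500 kb held 6 CAL27 regions and 4 SCC13 regions.

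LIF encodes a cytokine of the IL-6 family that signals through gp130, and in the RefSeq order it is followed by OSM, the gene of a close relative. The 200 kb window on chromosome 22, from 30.54 to 30.74 Mb, had the highest density of the 8 windows in CAL27, with 9 regions or 45.0 per Mb, and 3 regions or 15.0 per Mb in SCC13. Of consecutive 200 kb windows, 0.123% had at least 9 CAL27 regions and 2.30% had at least 3 SCC13 regions.

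The widest region at LIF was chr22:30591320-30593080 (1761 bp), listed in CAL27 only, and 2.60% of CAL27 regions were as wide or wider. The first region of the window, chr22:30571825-30572832 (1008 bp), was also in CAL27 only. Next came chr22:30623986-30624622 (637 bp), listed in SCC13 only and 17.8 kb from the nearest CAL27 region. A CAL27 group of 3 followed over chr22:30641551-30658474, with regions of 1040, 740 and 1229 bp, and SCC13 had no region there.

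Regions listed in both lines lay in the right part of the LIF window, at chr22:30685831-30687044 (1214 bp) and chr22:30722668-30723396 (729 bp). Between them was chr22:30697760-30699014 (1255 bp), in CAL27 only, and to their left a CAL27-only region of 686 bp at chr22:30673131-30673816. After the group of 3, neighbouring regions were 11.9 to 24.6 kb apart, and regions of both lines alternated with CAL27-only regions. The flanks of 500 kb held 10 CAL27 regions and 5 SCC13 regions, all 5 listed in both.

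CD274 encodes PD-L1, the ligand of the T cell checkpoint receptor PD-1. Its 220 kb window on chromosome 9, from 5.35 to 5.57 Mb, held 1 region, chr9:5565941-5566637 (697 bp), listed in CAL27 only. At least 1 CAL27 region was present in 49.4% of 220 kb windows, and 69.3% had no SCC13 region. The region lay 3.71 kb inside the right edge of the window and was lost when the window was narrowed by 25 kb on each side. In the RefSeq order CD274 is followed by PDCD1LG2, the gene of the second PD-1 ligand, and the nearest region of either line was 63.4 kb away.

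**Figure D2:**
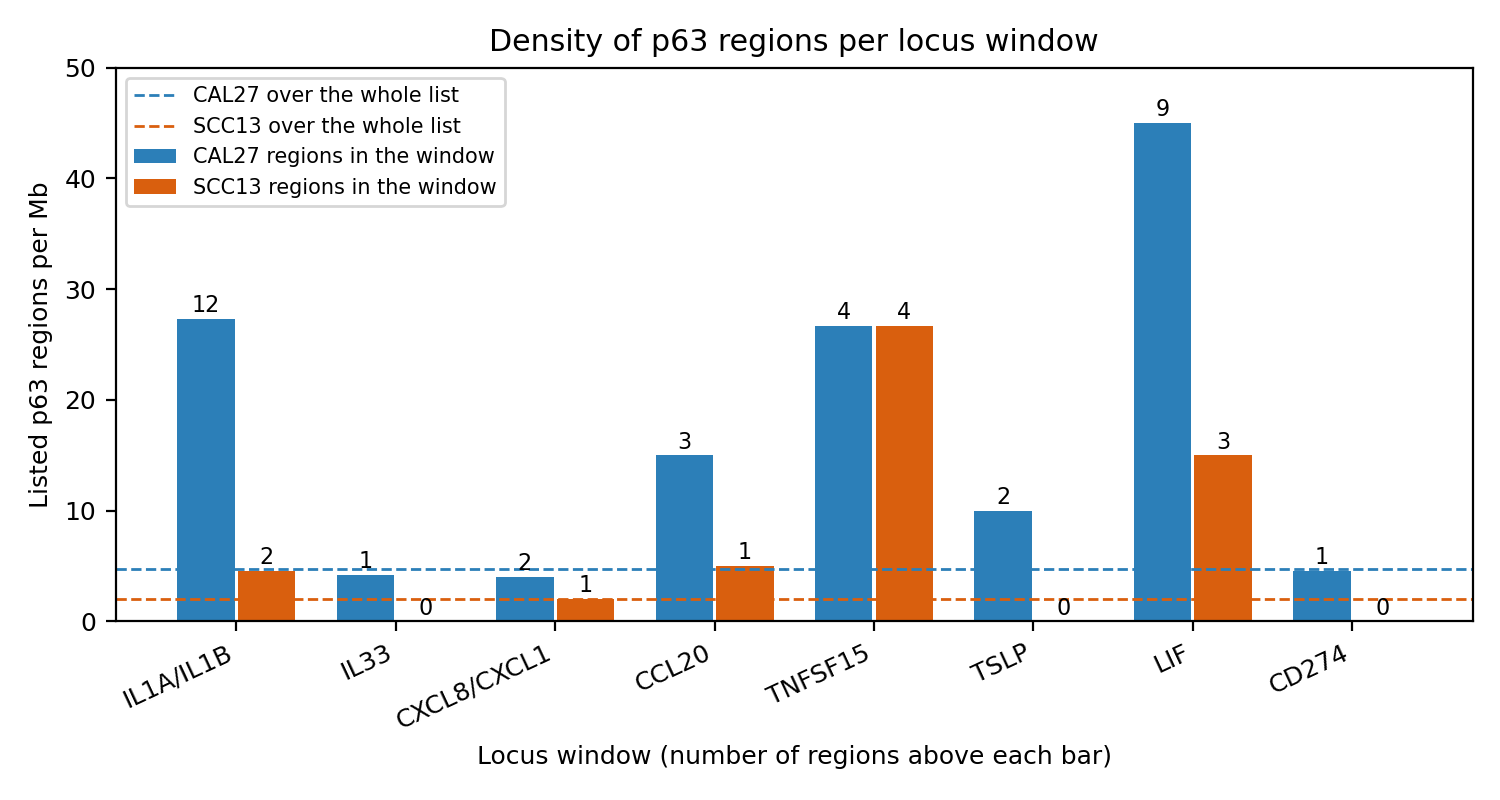
Bars give listed p63 regions per Mb in each locus window for CAL27 and SCC13, with the number of regions above each bar, and dashed lines give the density over the whole list, 4.72 per Mb in CAL27 and 2.01 in SCC13. LIF in CAL27 reaches 45.0 per Mb, the TNFSF15 bars are both at 26.7 with these window bounds, and the CAL27 bars of IL33, CXCL8/CXCL1 and CD274 lie near or below the CAL27 line.

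**Figure D3:**
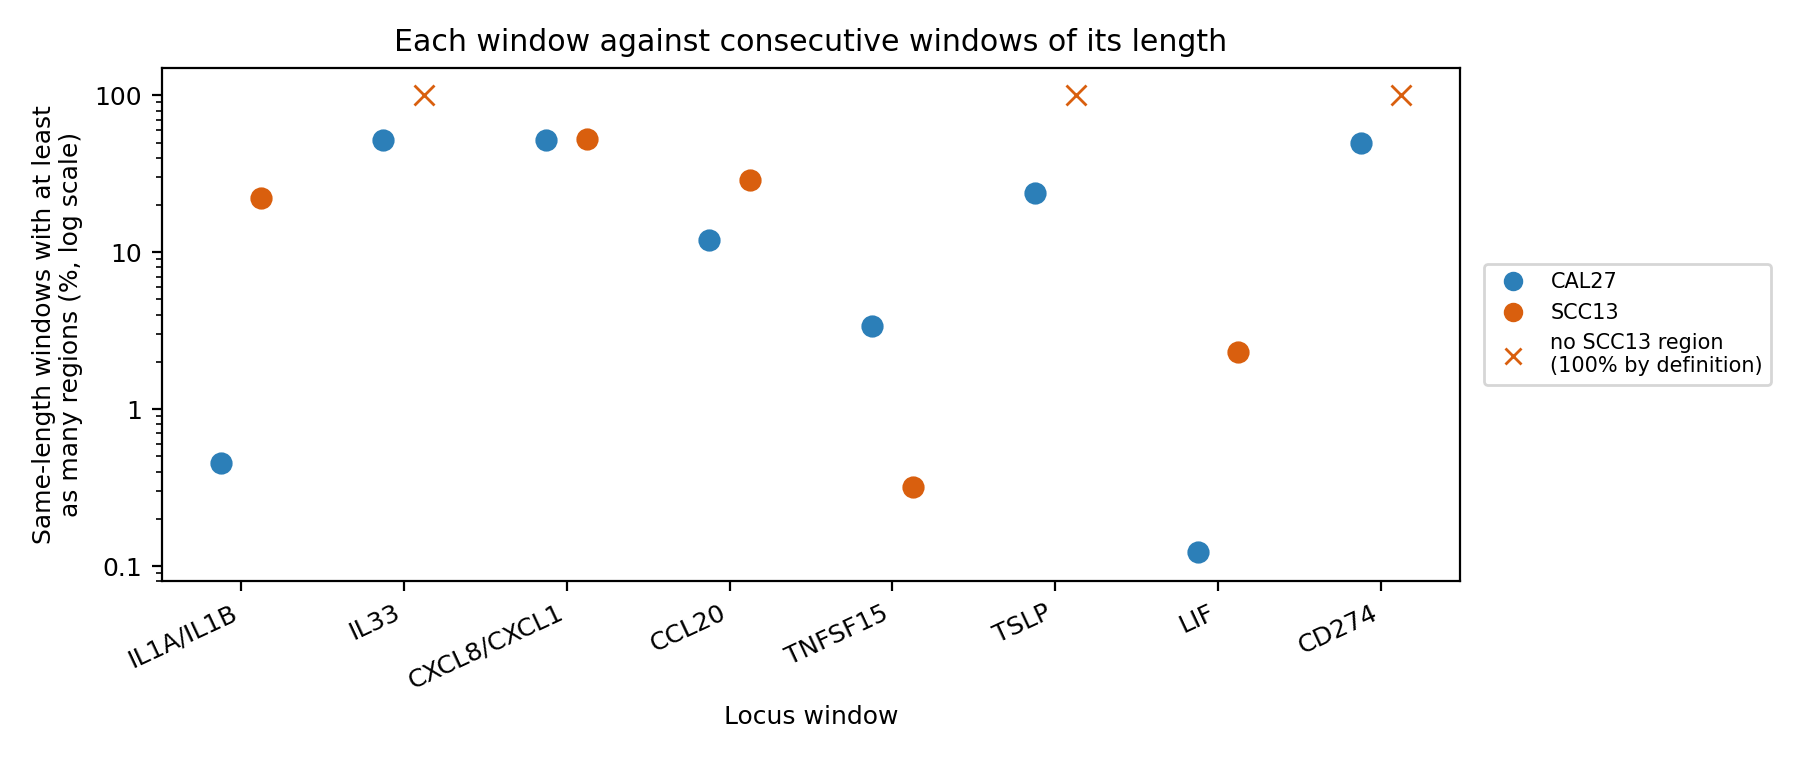
For each locus the points give, on a log axis, the percentage of consecutive windows of the same length with at least as many regions, for CAL27 and SCC13, and crosses mark windows with no SCC13 region. The lowest CAL27 points are LIF at 0.123% and IL1A/IL1B at 0.451%, the lowest SCC13 point is TNFSF15 at 0.318%, and IL33, CXCL8/CXCL1 and CD274 lie between 49.4 and 52.9% wherever they have a point.

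Median widths in the windows were ordered differently by class than over the whole lists, on few regions whose widths overlapped. The 9 regions listed in both lines had a median width of 736 bp (quartiles 721 and 1084), and the 25 CAL27-only regions had a median of 982 bp (697 and 1229). Over the whole lists the medians were 934 bp for 4448 regions in both lines and 723 bp for 9381 CAL27-only regions. The IL1 window carried most of the high CAL27-only median, which was 740 bp without it. The median for regions in both lines stayed at 736 bp without IL1, but ranged from 725 to 880 bp as each locus was left out. The 2 SCC13-only regions, at TNFSF15 and LIF, were 672 and 637 bp wide, beside a median of 590 bp for all 1438 SCC13-only regions. Of the 34 CAL27 regions, 55.9% (37.9 to 72.8) were at or above the median width of the list, where 50.0% are by definition, and of the 11 SCC13 regions 36.4% were (10.9 to 69.2; also 50.0% over the list). Whether width follows the strength of p63 binding could not be examined, because the lists hold no signal value.

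**Figure D4:**
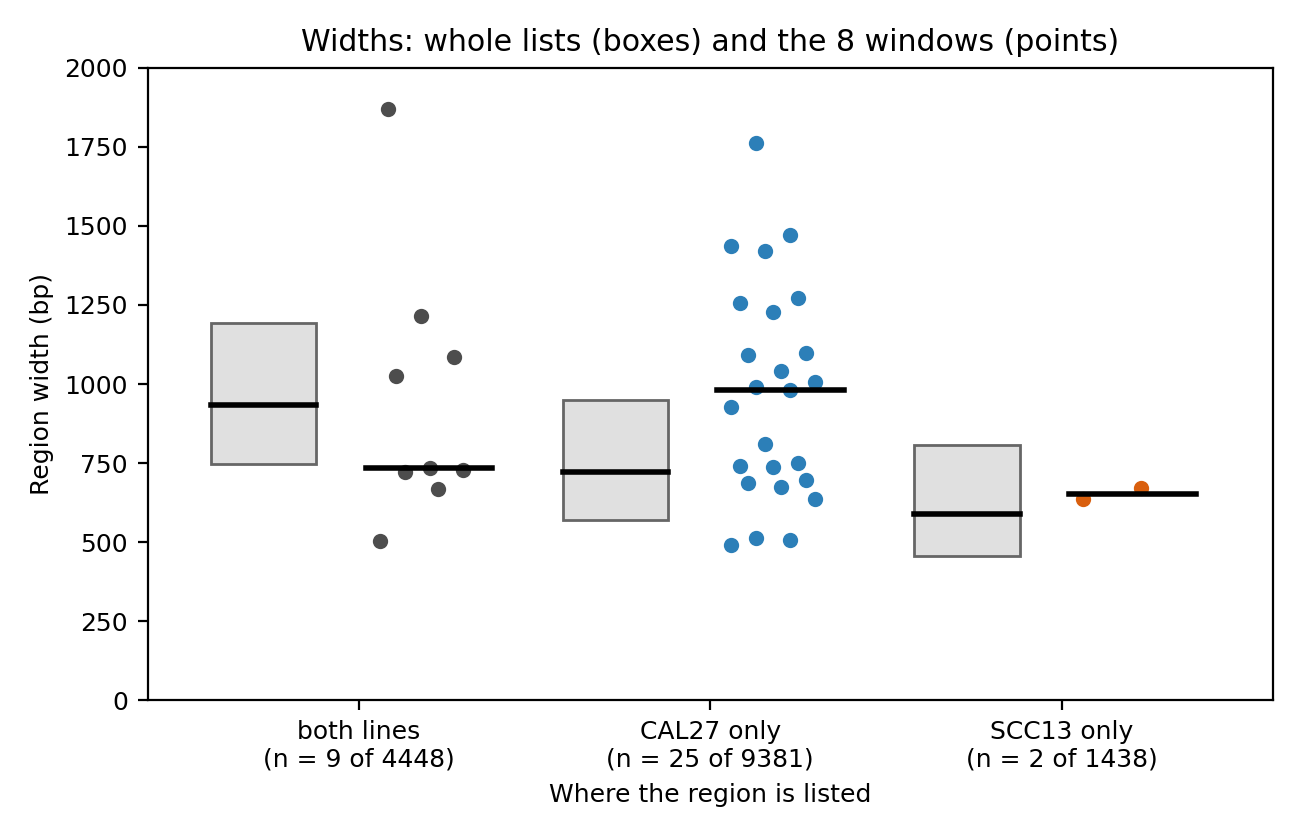
Points are the widths in bp of the regions in the 8 windows, by the lists that hold them, with a line at their median, and boxes to their left give the quartiles and median of all regions of that class. The points of regions in both lines have a median of 736 bp, under their box's 934 bp, and those of CAL27-only regions have 982 bp, over their box's 723 bp.

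Neighbouring CAL27 regions were close together at IL1, TNFSF15 and LIF, and neighbouring SCC13 regions at IL1 and TNFSF15. At LIF the nearest other SCC13 region was 36.6 to 62.1 kb away. The distance from a windowed CAL27 region to the nearest other CAL27 region had a median of 11.9 kb (1.46 to 168), beside 36.5 kb over the whole list. In SCC13 the median was 11.2 kb (2.31 to 423), beside 102 kb. Of the CAL27 regions, 12 of 34, or 35.3% (19.7 to 53.5), were in groups of 3 or more, beside 7.27% of the list, and in SCC13 4 of 11, or 36.4% (10.9 to 69.2), beside 1.39%. The 4 CAL27 groups were 2 at IL1, 1 at TNFSF15 and 1 at LIF, and the only SCC13 group was that of TNFSF15, so these shares rest on 3 windows and regions of a group are not independent.

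Of the 9 regions listed in both lines, 5 had another such region as their nearest CAL27 neighbour, or 55.6% (21.2 to 86.3), beside 33.9% over the whole CAL27 list. The interval holds the value of the whole list, and the 5 came from 2 windows, 2 at IL1 and 3 at TNFSF15. The 2 at IL1 were each other's nearest neighbour, so these regions are not independent and no conclusion is drawn from the interval. The 25 CAL27-only regions lay a median of 55.2 kb from the nearest SCC13 region (11.8 to 303), beside 110 kb for all CAL27-only regions.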

How the data were processed

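Each deposited list, 1 per line, gives the position of every p63 region in 3 columns and no measured value. MACS2, Bowtie2, SAMtools 1.8 and hg19 are named, without their roles, in the submitters' processing notes. The peak threshold, the part of the samples titled none and how replicates were combined were not given in the sources used here. Per the labels' protocols, crosslinking took 10 min in 1% formaldehyde and the p63 antibody was used at 10 ug.

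Positions are counted from 1. Regions were assigned by midpoint and matched between lists where they overlapped by 1 bp or more. Background windows were laid consecutively from the first to the last region of each chromosome. Stretches without genes or assembled sequence were not left out of these windows or of the density. The background is therefore not matched to windows drawn around genes. Intervals are exact Clopper-Pearson at 95% and cover counting error only. No test was made, since each line has 1 list. Distances in kb are between midpoints. The members, windows and lists were chosen with earlier results of these data known. All regions of windows with up to 8 are named; at IL1 and LIF the rule took the 5 widest, the SCC13-only, the first and the last, and the others were named after their values were seen. Gene order comes from RefSeq of GRCh38.p14. Positions against genes, motifs in regions and lists of receptors and further ligands were not analysed here. Python 3.11.15, numpy 2.4.6, scipy 1.17.1 and matplotlib 3.10.9 were used; functions were tested on simulated data.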

Additional observations from a re-analysis of the deposited data

How the results depend on the processing

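No paired analysis was possible because each line has 1 list for both p63 replicates, and for the same reason no replicate could be left out. Other rules of membership (any base, or the whole region, in the window) changed no count. Other rules of matching (reciprocal overlap of at least 50%, identical ends) could change none, since shared regions are identical in both lists. Windows widened by 50 kb held 14 regions listed in both lines in place of 9, and counts changed at 4 loci; narrowing by 25 kb changed them at 5. With neighbours within 12.5 kb counted once, SCC13 had 7 regions in place of 11. Joining within 5 kb left 0 groups of 3 or more in CAL27 and 0 in SCC13, in place of 4 and 1. In alternatives added after the data were examined, CAL27 had 22 regions without the IL1 locus and SCC13 had 7 without the TNFSF15 locus, and the shared percentage of CAL27 ranged from 20.0 to 31.8% as each locus was left out. Shifted background windows gave 0.109% in place of 0.123% for LIF and 0.392% in place of 0.451% for IL1 in CAL27. Depth is unknown and limits what absence from a list can show.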
